A study of Bos taurus with 8 samples.

Results

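Retinoid metabolism and binding were followed through 7 of the 21880 genes in the deposited feature table: the serum carrier RBP4, the receptor for that carrier STRA6, the intracellular carrier CRABP2, the dehydrogenases ALDH1A1 and ALDH1A2, the reductase DHRS3 and the nuclear receptor RARB. The genes were taken by symbol, each symbol matched 1 row, and all 7 were kept whatever their level. Single-cell RNA sequencing (10x 3' libraries) had been run on cells of semitendinosus muscle from Belgian Blue cattle at 5 timepoints: directly after collagenase digestion ("muscle"), after 72 h of plating in serum-free growth medium (passage 0, P0), and at passages 2, 5 and 8 (P2, P5, P8). Muscle held cells of 10 donor animals, 5 calves and 5 adults, and each later timepoint held 9 of them. After P0 the donors were kept as sorted cultures of satellite cells (SCs), the muscle stem cells, on laminin-521 (donors 5, 6 and 10), sorted cultures of fibro-adipogenic progenitors (FAPs), the stromal progenitors of muscle, on collagen I (donors 4, 7 and 8) or unsorted cultures on fibronectin (donors 1, 2 and 9). Donor 3 was present in muscle only.

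Vitamin A travels in blood as retinol bound to RBP4, and STRA6 carries it across the plasma membrane of some cells. Inside the cell, retinol is oxidised to retinal and then, by ALDH1A enzymes, to retinoic acid, while DHRS3 turns retinal back into retinol. CRABP2 hands retinoic acid to nuclear receptors of the RAR family, which bind DNA with RXR partners, and RARB and DHRS3 are themselves well-known targets of retinoic acid.

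Each timepoint was 1 pooled library, so a timepoint and its library cannot be told apart, and donors, assigned by genotype, served as replicates. The libraries held 4395, 9591, 8966, 10405 and 2772 cells with a median of 4184 to 27240 UMIs per cell, the lowest in muscle. Of 36000 distinct barcodes, 129 occurred in at least 2 libraries, and 16 of these were given to the same donor. Levels are the UMIs of a gene scaled by all UMIs of a donor's cells of 1 type (CPM), for donors with at least 10 such cells. They are compared within a gene, except where RBP4 is set against DCN and where marker genes are summed. The deposited types FAPs, SCs, VECs (vascular endothelium), LECs (lymphatic endothelium), SMMCs (smooth muscle and mesenchymal) and Mono/Mac (monocytes and macrophages) carried their own markers in muscle. The FAP markers PDGFRA, DCN, LUM and DPT summed to between 21434 and 25982 CPM in FAPs and to at most 1272 CPM in the other 5 types, and the SC sum was 739 to 2067 CPM in SCs. Of 4 fat cell markers, ADIPOQ and CIDEC were at 0 UMIs in muscle FAPs and PLIN1 at 9, while the lipase gene LPL made nearly all of their sum of 75.4 to 279 CPM. Since the types came from clusters of the same expression values, levels between types are a description with no test.

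RBP4, the plasma carrier of retinol, was highest in muscle FAPs among the types with donor values. Its level there was 376 CPM in the lowest donor, 481 CPM at the median and 929 CPM in the highest (536 ± 187, SD, n = 10). SCs followed at 87.7 to 228 CPM (167 ± 38.9, n = 10) and did not overlap FAPs. SMMCs (9.49 to 114 CPM) and VECs (4.15 to 52.3 CPM) overlapped each other, and SMMCs also overlapped SCs. Mono/Mac reached 10.1 CPM at most, and LECs had no RBP4 UMI in the 4 donors with enough cells. The 23 tenocytes of muscle, with no donor reaching 10 cells, gave 923 CPM as a pool.

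ALDH1A2, the dehydrogenase that makes most embryonic retinoic acid, was read from FAPs almost alone. Its level in muscle FAPs was 57.0 CPM in the lowest donor, 94.7 CPM at the median and 149 CPM in the highest, from 816 UMIs (99.9 ± 31.9, n = 10). The highest donor of another type stood at 12.5 CPM, in VECs, and SCs held 3 ALDH1A2 UMIs in all.

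ALDH1A1, the related dehydrogenase, stood at like levels in FAPs and SCs. FAPs ranged from 48.4 to 273 CPM with a median of 169 CPM (164 ± 67.8, n = 10), and SCs from 69.2 to 245 CPM with a median of 152 CPM (157 ± 56.8, n = 10). These ranges overlapped nearly throughout. Means were lower in Mono/Mac (44.7 CPM), SMMCs (41.7 CPM) and VECs (16.0 CPM), and LECs had no UMI. The pool of 12 glial cells gave 350 CPM from 14 UMIs (exact Poisson interval 191 to 587 CPM, counting error only).

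DHRS3, the retinal reductase, had another order, with VECs first among the types with donor values. VECs ranged from 199 to 404 CPM with a median of 252 CPM (279 ± 71.4, n = 10). Mono/Mac followed at 61.5 to 222 CPM, overlapping VECs at their upper end. SMMCs (53.9 to 163 CPM) and LECs (30.4 to 154 CPM) overlapped Mono/Mac and each other. FAPs lay at 24.1 to 55.3 CPM and SCs at 0 to 49.4 CPM, below every VEC donor and overlapping the lower ends of LECs and, for FAPs, SMMCs. The tenocyte pool (317 CPM, 45 UMIs) and the 12 glial cells (350 CPM, 14 UMIs), with no donor reaching 10 cells, stood within the VEC range.

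RARB, a retinoic acid receptor, was also read mostly outside FAPs and SCs. It stood at 8.35 to 34.3 CPM in VECs (18.1 ± 7.62, n = 10) and at 0 to 38.3 CPM in SMMCs (27 UMIs). Lymphocytes ran from 0 to 51.7 CPM, from only 8 UMIs in 188 cells and with 4 of 10 donors at 0. FAPs reached at most 7.05 CPM and SCs 3.06 CPM. VECs, SMMCs and lymphocytes overlapped. The lowest VEC donor stood above the highest FAP and SC donors.

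CRABP2, which delivers retinoic acid to its receptors, ranged in muscle FAPs from 6.37 to 71.4 CPM with a median of 15.7 CPM (22.4 ± 18.5, n = 10). SCs held 4 CRABP2 UMIs and VECs 3, with at most 6.66 and 4.37 CPM in a donor. Mono/Mac, with 8 UMIs and at most 19.7 CPM, and lymphocytes, with 3 UMIs and at most 17.2 CPM, overlapped FAPs. The highest SC donor also stood above the lowest FAP donor. The pool of 23 tenocytes gave 56.4 CPM from 8 UMIs (exact Poisson interval 24.3 to 111 CPM, counting error only). STRA6, the RBP4 receptor, gave 12 UMIs in muscle FAPs, with 5 of 10 donors at 0, and none in the other types. A count of 0 in the VEC pool allows up to 0.733 CPM (3 UMIs, counting error only). STRA6 therefore passed the filter on low counts in no comparison.

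**Figure D1:**
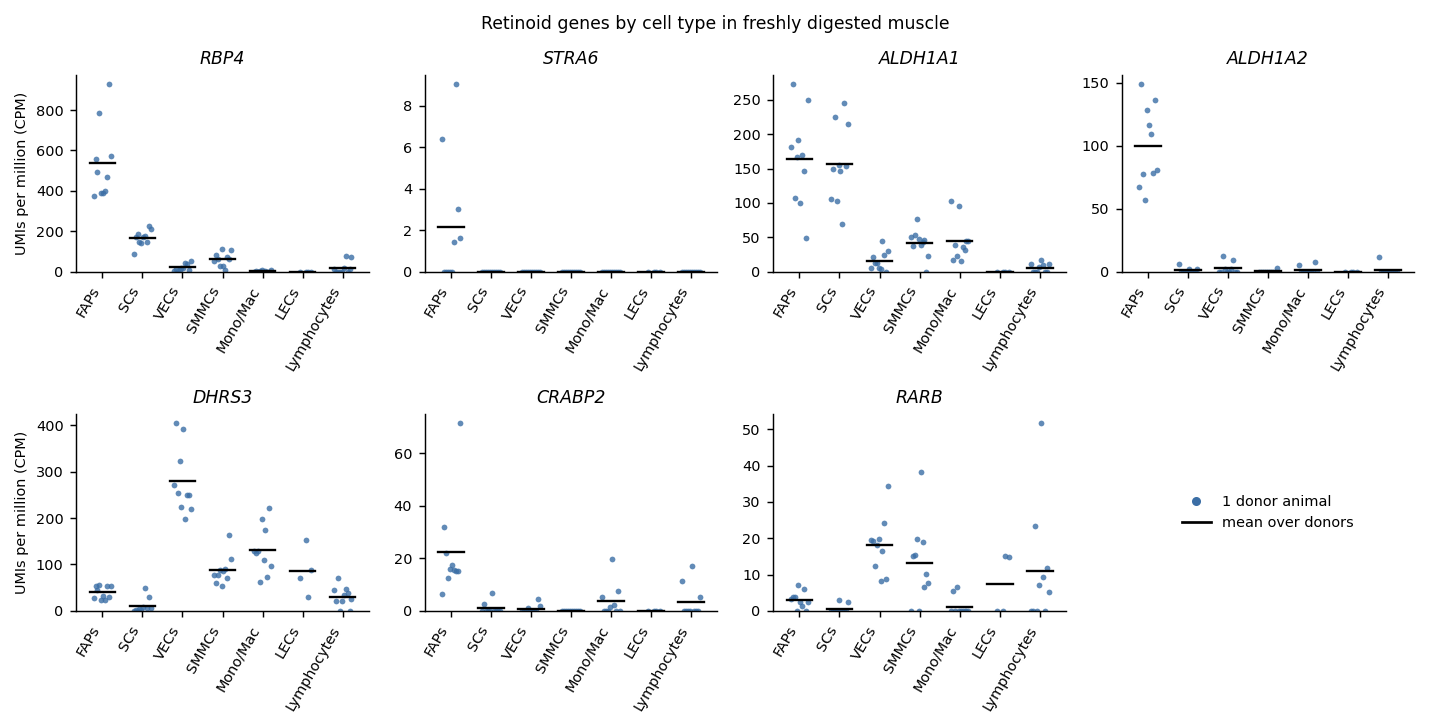
Level of each of the 7 genes (CPM, linear axis from 0) in 7 cell types of freshly digested muscle, with 1 point per donor and a bar at the mean over donors. RBP4 and ALDH1A2 stand highest in FAPs, ALDH1A1 stands as high in SCs as in FAPs, and DHRS3 and RARB stand higher in VECs than in FAPs.

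The share of cells with a UMI put FAPs and VECs in the same order after each cell was thinned to 2000 UMIs. A mean of 56.4% of muscle FAPs per donor had an RBP4 UMI (80.6% before thinning), against 2.41% of VECs (3.33%). For ALDH1A2 the shares were 17.5% of FAPs (29.5%) and 0.294% of VECs (0.555%). For DHRS3 they were 8.80% of FAPs (15.2%) and 42.0% of VECs (52.2%). Median depth was 6213 UMIs in FAPs and 2779 in VECs, and thinning left out 38 of 1231 FAPs and 336 of 1166 VECs.

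The first comparison asked what 72 h of culture did to these genes within a type. UMIs summed per donor and type were tested with edgeR's quasi-likelihood test over all genes. A gene was called at a Benjamini-Hochberg adjusted p below 0.05 with an absolute log2 fold change (log2FC) above 1. In FAPs, DHRS3, ALDH1A2 and ALDH1A1 fell between muscle and P0, in all 9 donors present at both, while RBP4 and CRABP2 were not called. Of the 7 genes 5 passed the filter on low counts and 3 were called, all lower, in a comparison where 43.4% of all 9208 genes tested were called and 22.5% were called lower. DHRS3 and ALDH1A2 passed that filter through their muscle values, so their direction adds nothing to this count.

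DHRS3 in FAPs went from a median of 38.5 CPM in muscle to 0.0969 CPM at P0 (0 to 0.523 CPM), with only 23 UMIs in 5756 cells. The groups did not overlap and the log2FC was -7.63 (SE 0.32, adjusted p = 2.5e-16). ALDH1A2 went from a median of 94.7 to 3.97 CPM (1.39 to 4.53 CPM), again with no overlap, for a log2FC of -4.83 (SE 0.23, adjusted p = 2.0e-14). ALDH1A1 went from a median of 169 to 21.6 CPM. Its P0 values ran from 16.7 to 64.3 CPM, so that donor 5 at P0 overlapped the lowest muscle donor, and the log2FC was -2.57 (SE 0.31, adjusted p = 3.5e-07).

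RBP4 in FAPs stood at 552 to 772 CPM at P0 with a median of 688 CPM, inside the muscle range, and was higher than in muscle in 7 of 9 donors. Its log2FC of 0.46 (SE 0.14, adjusted p = 0.0062) was below the fold threshold. CRABP2 stood at 12.4 to 35.4 CPM with a log2FC of -0.11 (SE 0.33, adjusted p = 0.774). RARB was not tested, with a mean of 2.99 CPM in muscle and 0.654 CPM at P0. In the same FAP sums 8 of 11 marker sets of other types had a lower median at P0 too, among them the 3 most abundant, with a muscle median of 841 CPM and at most 1.10 CPM at P0 for 4 myocyte markers, 544 and at most 24.7 CPM for 4 tenocyte markers and 124 and at most 2.71 CPM for the fat cell markers, while the medians of the SMMC (15.6 to 43.2 CPM), neutrophil (4.88 to 60.2 CPM) and glial markers (8.18 to 15.4 CPM) were higher. Their part in the falls was not tested.

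DHRS3 also fell in VECs, SMMCs and Mono/Mac. In VECs it went from a median of 252 to 8.65 CPM (6.03 to 24.5 CPM), with a log2FC of -4.66 (SE 0.23, adjusted p = 3.3e-14). In SMMCs 13 UMIs remained at P0, and the log2FC was -5.09 (SE 0.33, adjusted p = 1.2e-12). In Mono/Mac 1 UMI remained, from 372 in muscle, with a fitted log2FC of -6.57 (SE 0.55, adjusted p = 5.1e-11). In none of these types did a P0 donor overlap a muscle donor. In VECs, SMMCs and Mono/Mac, as in FAPs, DHRS3 passed the filter on low counts through its muscle values. A fall was therefore the direction open to it. In SCs the gene passed no filter, with 31 UMIs in muscle and 3 at P0. In VECs the glial markers went from a median of 516 to 37.3 CPM, the tenocyte markers from 93.6 to 8.29 CPM and the FAP markers from 188 to 387 CPM. In SMMCs the tenocyte markers went from 976 to 98.6 CPM and the FAP markers from 129 to 703 CPM. Their part in the DHRS3 values was not tested.

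In SCs, ALDH1A1 fell, from a median of 152 CPM to 20.8 CPM (4.66 to 34.8 CPM), in 9 of 9 donors and with no overlap. Its log2FC was -3.03 (SE 0.32, adjusted p = 6.2e-08). In the same SC sums the SC markers went from a median of 1218 to 125 CPM, the glial markers from 375 to 36.1 CPM and the myocyte markers from 362 to 0.187 CPM. The FAP markers rose from 89.9 to 1426 CPM and the neutrophil markers from 4.28 to 54.0 CPM. Their part in the ALDH1A1 values was not tested. ALDH1A1 was the 1 called gene of the 2 tested in SCs, where 34.3% of all genes tested were called. It passed the filter on low counts through its muscle values, so its direction adds nothing to this count. In SMMCs ALDH1A1 did not pass the filter, and stood at 0 to 77.3 CPM in muscle (91 UMIs) and 21.0 to 94.6 CPM at P0 (234 UMIs), higher at P0 in 5 of 7 donors with overlapping groups. In VECs both tested genes were called (35.1% of all genes), as in SMMCs (36.4%) and Mono/Mac (34.6%), and in LECs the 1 tested gene was called (29.6%). RARB did not pass the filter in VECs. Its mean there went from 18.1 to 1.45 CPM (80 and 13 UMIs), lower in 9 of 9 donors with no overlap. In SMMCs, also untested, RARB was lower in 6 of 7 donors with overlap. DHRS3 did not pass in LECs, with means of 86.1 CPM in muscle and 5.30 CPM at P0 (22 and 8 UMIs) and no overlap.

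**Figure D2:**
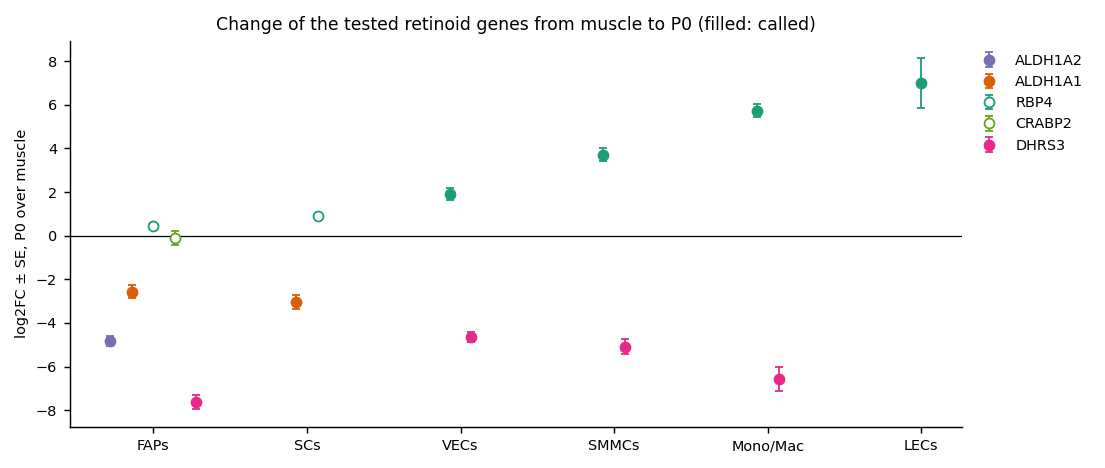
Change from muscle to P0 (log2FC with its SE as the bar) of each of the 7 genes that was tested, in 6 cell types; filled points were called. The DHRS3, ALDH1A1 and ALDH1A2 points lie below 0 wherever they were tested, and RBP4 lies above 0 in all 6 types, lowest in FAPs at 0.46. DHRS3 in each type shown, ALDH1A2 in FAPs and ALDH1A1 in SCs passed the filter on low counts through muscle. RBP4 in VECs, Mono/Mac and LECs passed it through P0. The direction of these points therefore adds nothing to the pattern. The highest point, in LECs, is a fitted value of 7.00 against 0 UMIs in muscle and no bound on the change.

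RBP4 rose at P0 in the types that held little of it in muscle. VECs went from a median of 15.9 to 82.1 CPM (62.0 to 134 CPM; log2FC 1.92, SE 0.28, adjusted p = 2.0e-06). SMMCs went from a median of 61.3 to 763 CPM (547 to 1259 CPM; log2FC 3.72, SE 0.29, adjusted p = 1.7e-09), and Mono/Mac from 1.19 to 322 CPM (179 to 354 CPM; log2FC 5.74, SE 0.29, adjusted p = 2.4e-15). No donor of one timepoint overlapped one of the other in these 3 types. LECs held no RBP4 UMI in muscle and 151 at P0, which is at least 7.45-fold higher when 3 UMIs are set over the muscle pool (adjusted p = 2.1e-05). In VECs, in Mono/Mac, with 12 UMIs in muscle, and in LECs the gene passed the filter on low counts through P0. A rise was therefore the direction open to it in these types. In SCs all 9 donors were higher at P0 (238 to 482 CPM), with no overlap, and the log2FC was 0.91 (SE 0.13, adjusted p = 1.0e-06), just under the fold threshold. DESeq2 gave 1.00 there and a fit with no filter on low counts 1.27, both called.

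DCN, a proteoglycan gene that marks FAPs, was followed beside RBP4 in these types. Between muscle and P0 its pooled level went from 201 to 1139 CPM in SCs, from 167 to 584 CPM in SMMCs, from 131 to 1062 CPM in Mono/Mac, from 31.7 to 354 CPM in LECs and from 249 to 256 CPM in VECs, and in FAPs from 18945 to 2867 CPM. The sum of the 4 FAP markers at P0 was 2882 to 4551 CPM in FAPs, 979 to 2015 CPM in SCs, 910 to 1941 CPM in Mono/Mac, 486 to 1055 CPM in SMMCs, 230 to 1148 CPM in LECs and 239 to 509 CPM in VECs. In Mono/Mac the neutrophil markers S100A8, S100A9, S100A12 and CSF3R went from 4.94 to 5108 CPM in muscle (median 187) to 3683 to 9598 CPM at P0 (median 7030), with CSF3R at 0 there, and the type's own 4 markers from a median of 1914 to 939 CPM. The part of these markers in the RBP4 and DHRS3 values was not tested.

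The number of RBP4 UMIs per DCN UMI at P0 was 0.238 in FAPs (0.160 to 0.325 over donors). It was 0.274 in SCs (0.150 to 0.375), 0.282 in Mono/Mac (0.203 to 0.470), 0.243 in LECs (0.0962 to 0.500) and 0.318 in VECs (0.241 to 0.429). The donor ranges of these 4 types overlapped that of FAPs. In SMMCs the ratio was 1.42 (0.691 to 2.17), above every FAP donor. In muscle the ratio over donors was 0.0175 to 0.0456 in FAPs, 0 to 0.154 in Mono/Mac, 0.0317 to 0.700 in VECs, at least 0.0588 in SMMCs and 0.240 to 5.17 in SCs, the lowest SC value in donor 6. SC and SMMC donors lay above every FAP donor, and SCs overlapped VECs.

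**Figure D3:**
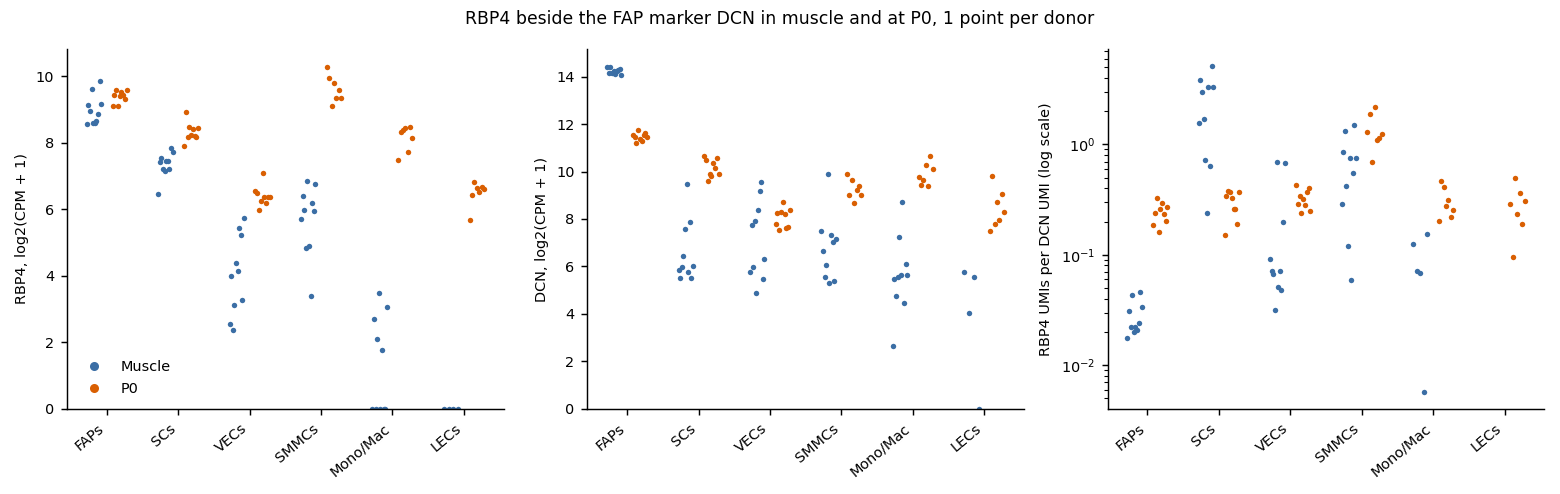
RBP4 level (left) and DCN level (middle), as log2(CPM + 1), and RBP4 UMIs per DCN UMI (right, log axis) in 6 cell types in muscle and at P0, with 1 point per donor. Donors with no RBP4 UMI are not drawn in the ratio. At P0 the ratios of FAPs, SCs, VECs, Mono/Mac and LECs overlap, and those of SMMCs lie above them.

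After thinning to 2000 UMIs, a mean of 64.1% of FAPs (94.8% before thinning) and 12.9% of VECs (53.8%) had an RBP4 UMI at P0, over the 5655 of 5756 FAPs and 828 of 831 VECs that were deep enough. The median depth of all FAPs was 24188 UMIs and of all VECs 12856. DHRS3 was read in 1.86% of thinned VECs (11.8%) and ALDH1A2 in 0.671% of thinned FAPs (6.34%).

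Whether the change from muscle to P0 itself differed between types was tested with an interaction term. Against VECs, 2 of 5 tested genes were called (25.6% of all genes). DHRS3 fell further in FAPs, by 2.92 on the log2 scale (SE 0.45, adjusted p = 1.2e-06), and RBP4 changed by 1.53 less (-1.53, SE 0.32, adjusted p = 1.6e-04). With each pseudobulk thinned to the smallest, the DHRS3 difference was -1.60 and was no longer called (adjusted p = 0.063). CRABP2 passed the shared filter through FAPs, with 3 UMIs in muscle VECs, and its fitted difference of -2.58 (SE 1.12, adjusted p = 0.056; with donor as a block -2.46, adjusted p = 0.029) rests on VECs near 0 in muscle. Against SCs, 1 of 5 was called (20.0% of all genes), ALDH1A2 (-3.34, SE 1.08, adjusted p = 0.012). It too passed through FAPs, with 3 UMIs in muscle SCs and 14 at P0 and no test in SCs alone, so this value does not show how far SCs changed. The difference in ALDH1A1 between FAPs and SCs was 0.25 (SE 0.45, adjusted p = 0.701), and that in RBP4 was -0.67 (SE 0.21, adjusted p = 0.0087), below the fold threshold.

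From P0 to P2, CRABP2 had the largest log2FC of those of the 7 genes that passed the filter, in FAPs as in SCs. Donors of the sorted cultures of the type and of the unsorted cultures entered, 6 at each timepoint. P0 cells were on fibronectin before the sort. In donors of sorted cultures, passage, sort and coating therefore changed together and cannot be told apart. In FAPs, CRABP2 went from 12.4 to 23.7 CPM with a median of 18.1 CPM at P0 to 210 to 311 CPM with a median of 238 CPM at P2. The groups did not overlap, and the log2FC was 4.00 (SE 0.17, adjusted p = 3.4e-09). In SCs it went from a median of 4.21 CPM (2.39 to 14.1) to 33.1 CPM (15.1 to 45.5), with no overlap and a log2FC of 2.79 (SE 0.39, adjusted p = 2.8e-04). After thinning to 2000 UMIs, a CRABP2 UMI was found in a mean of 3.84% of FAPs at P0 and 28.9% at P2 (24.9% and 82.7% before thinning). The SMMC markers ACTA2, MYH11, RGS5 and CNN1 moved in the same step, from a median of 43.2 to 580 CPM over all FAP donors and from 74.9 to 614 CPM over all SC donors, and the myocyte markers in SCs went from 0.187 to 110 CPM. The FAP markers in SCs went from a median of 1426 to 4281 CPM. Their part in the changes from P0 to P2 was not tested.

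RBP4 fell in both types. In FAPs its median went from 692 CPM (553 to 769) to 195 CPM (163 to 381), a log2FC of -1.39 (SE 0.18, adjusted p = 1.6e-05). In SCs it went from 325 CPM (238 to 482) to 57.7 CPM (45.2 to 82.2), a log2FC of -2.51 (SE 0.17, adjusted p = 2.1e-06). All 6 donors of each type were lower at P2, with no overlap.

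ALDH1A1 moved in opposite directions. In all 6 FAP donors it was higher at P2, with a median of 44.9 CPM (32.6 to 107) against 21.0 CPM at P0 (16.7 to 22.8), and it rose by a log2FC of 1.61 (SE 0.24, adjusted p = 5.8e-05). In SCs it fell from 22.2 CPM (15.6 to 34.8) to 10.8 CPM (4.59 to 14.2), also in 6 of 6 donors (log2FC -1.23, SE 0.31, adjusted p = 0.00997). Neither type's groups overlapped, and the difference between the types was not tested.

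At low levels in FAPs, ALDH1A2 fell further, from a median of 3.64 to 0.958 CPM (log2FC -1.25, SE 0.41, adjusted p = 0.0148), and RARB rose by 1.16 (SE 0.30, adjusted p = 0.0032), with medians of 0.608 CPM at P0 and 1.11 CPM at P2. Both overlapped between timepoints. All 5 tested genes were thus called in FAPs (23.3% of all genes) and all 3 in SCs (8.73%). DHRS3 did not pass the filter in FAPs. It was read from 8 UMIs at P0 and 228 at P2 (means of 0.107 and 1.43 CPM), higher at P2 in 6 of 6 donors but with overlapping groups.

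**Figure D4:**
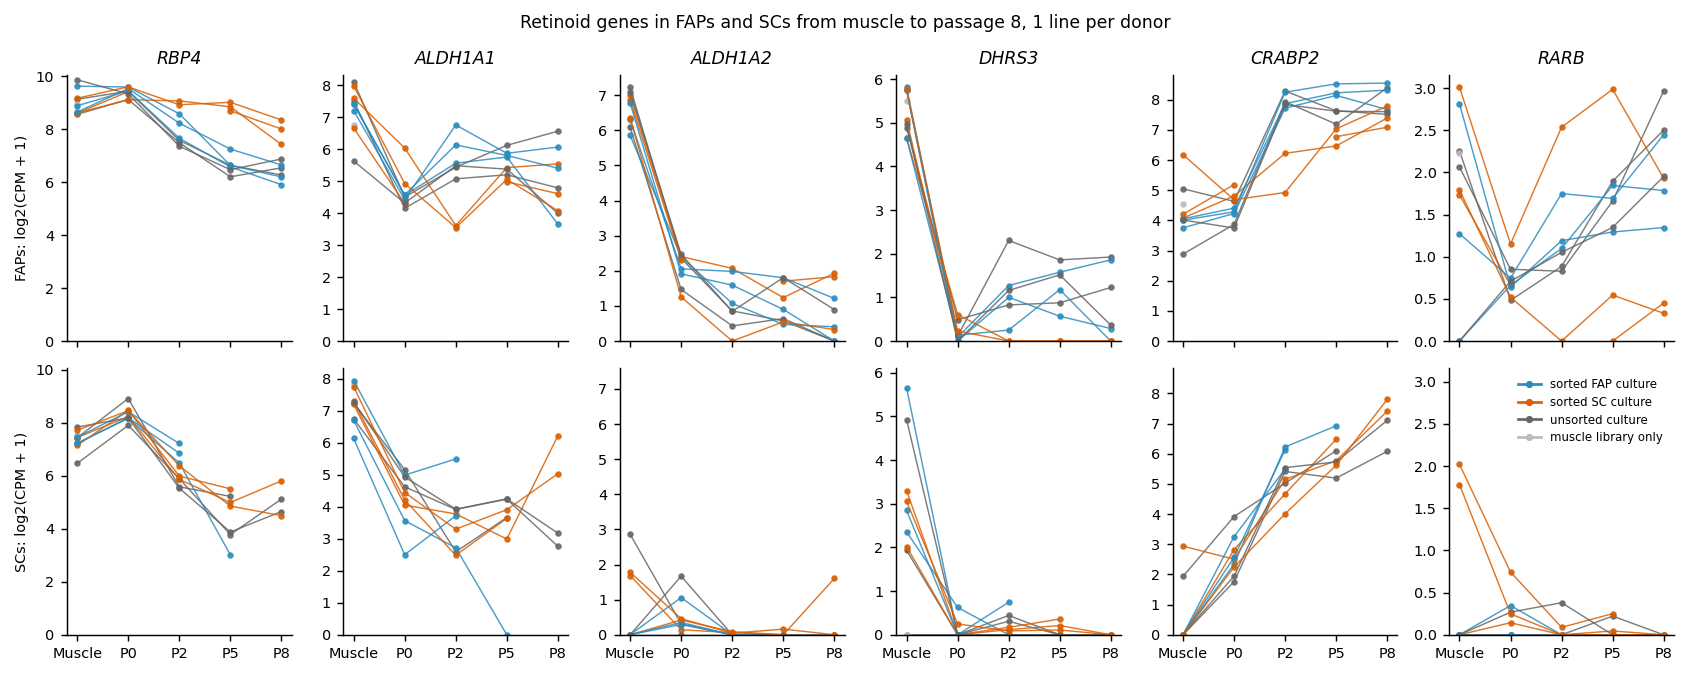
Level of 6 of the genes, as log2(CPM + 1), in FAPs (upper row) and SCs (lower row) from muscle to P8, with 1 line per donor coloured by culture. DHRS3, ALDH1A2 and ALDH1A1 drop in FAPs after muscle, CRABP2 steps up at P2 in both rows, and RBP4 is lower at P2 than at P0 in the donors tested in both rows.

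Later passages changed fewer of the genes. From P2 to P5 in FAPs, RBP4 was the 1 gene called of 6 tested (3.34% of all genes). It fell from a median of 195 to 96.2 CPM (72.5 to 151), in 6 of 6 donors and with no overlap (log2FC -1.12, SE 0.22, adjusted p = 0.0067). RARB had a log2FC of 0.88 (SE 0.27, adjusted p = 0.040), below the fold threshold. CRABP2, at a median of 239 CPM, had a log2FC of 0.05 (SE 0.20, adjusted p = 0.877). From P5 to P8 in FAPs, 0 of 5 tested genes were called (2.02% of all genes), and RARB was the 1 of them with an unadjusted p below 0.05 (log2FC 0.74, SE 0.32, adjusted p = 0.136). DHRS3 stayed at 0 to 2.79 CPM at P8, against 24.1 CPM or more in every muscle donor.

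In SCs from P2 to P5, 0 of 3 tested genes were called (0.195% of all genes), although RBP4 and CRABP2 had unadjusted p below 0.05. RBP4 went from a median of 57.7 to 29.4 CPM (12.7 to 44.5), lower in 6 of 6 donors with no overlap. Its log2FC of -1.09 (SE 0.29, adjusted p = 0.0858) was called with donor as a block (-1.20, adjusted p = 0.028) and with DESeq2 (-1.08, adjusted p = 0.011). CRABP2 went from a median of 33.1 to 52.8 CPM (log2FC 0.85, SE 0.28, adjusted p = 0.149).

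The pooled CRABP2 level of SCs over the 5 timepoints was 1.43, 4.82, 27.5, 55.5 and 151 CPM, the last from 156 cells, with 66.6 to 222 CPM in the 4 donors that had enough. Over the same timepoints LUM, a FAP marker, stood in SCs at 24.6, 270, 624, 1040 and 1186 CPM, and PDGFRA, the FAP surface marker, at 10.7 CPM in muscle, 61.4 CPM at P0 and 29.1 CPM at P5 and P8. Their part in the CRABP2 values was not tested.

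The sorted cultures were also compared as a whole at P2, all cells of a donor summed, so that the sort and not the clusters set the groups. All 5 tested genes were lower in SC cultures than in FAP cultures (of all genes 18.2% were called and 11.2% were called lower). ALDH1A2 and RARB passed the filter on low counts through the FAP cultures, with 6 and 5 UMIs in the SC cultures. For both, the direction therefore adds nothing to this count. Donor animals and coating differ between these cultures together with the sort, and cannot be told apart from it.

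CRABP2 was at 25.4, 34.7 and 15.3 CPM in SC donors 5, 6 and 10 and at 197, 223 and 298 CPM in FAP donors 4, 7 and 8 (log2FC -3.42, SE 0.35, adjusted p = 0.0014). RBP4 was at 71.6, 58.9 and 86.9 against 354, 289 and 199 CPM (log2FC -2.12, SE 0.24, adjusted p = 0.0019). ALDH1A1 was at 4.72, 12.6 and 8.88 against 42.4, 65.6 and 106 CPM (log2FC -3.21, SE 0.48, adjusted p = 0.0045). For each of these 3 genes the lowest FAP donor stood above the highest SC donor. ALDH1A2 and RARB did so at low levels, with at most 0.123 and 0.154 CPM in SC cultures, where RARB was at 0 in donors 6 and 10. In FAP cultures they stood at 1.00 to 2.90 and 1.03 to 2.22 CPM. The fitted log2FC were -4.90 (SE 0.66, adjusted p = 0.0033) and -4.81 (SE 0.91, adjusted p = 0.0097), and rest on SC cultures near 0. The share of all genes without overlap was not counted.

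Cells annotated FAPs were also found in the sorted SC cultures, and their RBP4 level stood apart from that of FAPs in FAP cultures. At P8 it was 170, 256 and 324 CPM in SC cultures of donors 5, 6 and 10 against 72.2, 99.1 and 58.8 CPM in FAP cultures of donors 4, 7 and 8. The unsorted cultures, at 91.9, 76.1 and 116 CPM, overlapped the FAP cultures. RBP4 was the 1 gene called of 4 tested (1.75% of all genes; log2FC 1.63, SE 0.27, adjusted p = 0.0347). The call was lost when any donor other than FAP donor 4 was left out (adjusted p = 0.052 to 0.097, log2FC 1.42 to 1.88). CRABP2 was 135 to 221 against 203 to 374 CPM (log2FC -0.84, SE 0.28, adjusted p = 0.172), and was called only without FAP donor 4. The count over all genes was as unsteady, with 173 called and 1 to 523 called when 1 donor was left out.

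The same order was seen at earlier passages, where no test was made. At P5 RBP4 was 458 CPM in 593 FAPs of donor 5, 412 CPM in 31 of donor 6 and 515 CPM in 70 of donor 10, against 94.2 to 151 CPM in FAP cultures. At P2 it was 534 and 483 CPM in 19 and 12 cells of donors 5 and 10, against 201 to 381 CPM. CRABP2 at P5 ran the other way, at 87.4 to 130 CPM in SC cultures and 281 to 367 CPM in FAP cultures.

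The FAP markers summed to 3346 to 4239 CPM in FAPs of SC cultures at P5 and to 16641 to 20254 CPM in those of FAP cultures. At P8, where the test was made, these sums were 3978 to 6512 and 7903 to 20001 CPM. The SC markers PAX7, MYF5, ITGA7 and CHODL summed to 6.67 to 63.2 CPM in the SC cultures, lowest in donor 5 and highest in donor 6, against 9.60 to 12.4 CPM at P5, and to 3.75 to 6.91 against 5.87 to 7.08 CPM at P8. Their part in the difference was not tested.

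**Figure D5:**
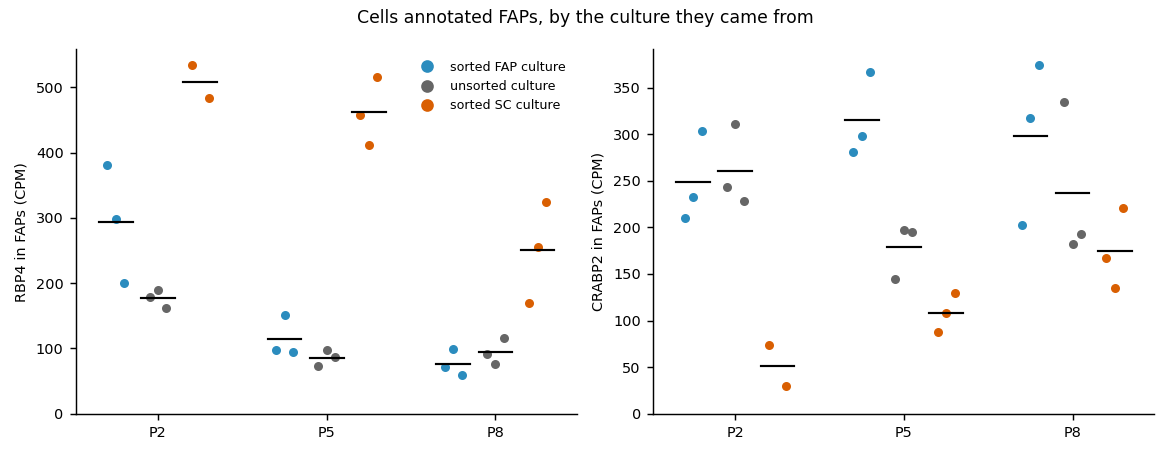
RBP4 and CRABP2 levels (CPM) in cells annotated FAPs at P2, P5 and P8, with 1 point per donor coloured by the culture it came from. FAPs of SC cultures stand highest for RBP4 at every passage drawn.

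Calves and adults differed in none of the genes by the call. In muscle FAPs 0 of 4 tested genes were called, with 1.32% of all genes called, and ALDH1A1 was the 1 gene with an unadjusted p below 0.05. It stood at 168 to 273 CPM with a median of 192 CPM in 5 calves and at 48.4 to 182 CPM with a median of 107 CPM in 5 adults (log2FC 0.95, SE 0.26, adjusted p = 0.075). It was called without adult donor 1 (1.14, adjusted p = 0.036). The log2FC of RBP4 was 0.15 (SE 0.26), of ALDH1A2 0.24 (SE 0.25) and of DHRS3 0.18 (SE 0.29). In P0 FAPs edgeR called 0 of 11466 genes (0.0%) and DESeq2 8. None of the 5 genes tested there had an unadjusted p below 0.05, and ALDH1A1 had a log2FC of 0.81 (SE 0.36, adjusted p = 0.967). Its values did not overlap, at 21.6 to 64.3 CPM in calves and 16.7 to 20.4 CPM in adults.

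Other genes of retinoid biology were taken from a list of 56 (carriers, oxidoreductases, degrading enzymes, receptors and known targets). From muscle to P0 in FAPs, 31 were tested, 4 rose and 14 fell, and the median log2FC of those tested was -0.78, against 0.03 over all genes, of which 43.4% were called and 22.5% were called lower. Genes that passed the filter on low counts only through muscle, TTR among them, are in these values. Their direction adds nothing to the count or the median, and how many there were was not counted. FABP5, a fatty acid carrier that also binds retinoic acid (3.89, SE 0.30), RAI14 (2.86, SE 0.21) and the retinal reductase DHRS4 (2.34, SE 0.17) rose most. TTR, the partner of RBP4 in plasma, went from 4.52 to 917 CPM over muscle donors to at most 0.317 CPM (-10.49, SE 1.14), AOX1, an oxidase of aldehydes, by -4.88 (SE 0.32) and RARRES2, the chemerin gene, by -4.22 (SE 0.25). In SCs 4 of 13 rose and 3 fell (34.3% of all genes called), and in VECs 3 of 16 rose and 7 fell (35.1%). RAI14, DHRS4 and SCARB1, a scavenger receptor, rose in each of FAPs, SCs and VECs, and RARRES2, HOXA5 and AOX1 fell in each. FABP5 fell in VECs (-6.18, SE 0.31), as did the receptor RARG (-3.11, SE 0.20). In SMMCs 2 of 9 rose and 3 fell (36.4% of all genes), in Mono/Mac 2 of 6 rose and 2 fell (34.6%), and in LECs 1 of 9 rose and 2 fell (29.6%).

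From P0 to P2 in FAPs 11 of 32 rose and 2 fell (23.3% of all genes called). RARRES1, named for its response to a retinoid, went from a median of 2.27 to 138 CPM (6.37, SE 0.39, adjusted p = 3.8e-08), RARRES2 from 23.7 to 186 CPM (3.84, SE 0.45) and the homeobox gene MEIS1 from 4.00 to 10.7 CPM (1.95, SE 0.29). TGM2 (-1.81, SE 0.58) and RDH13 (-1.55, SE 0.18) fell. In SCs 3 of 26 rose, among them RARRES1 (4.13, SE 0.68), and 1 fell (8.73% of all genes called). From P2 to P5 in FAPs CRABP1, the paralogue of CRABP2 (2.81, SE 0.89), and RARRES1 (1.66, SE 0.29) rose and 1 gene fell, of 36 tested (3.34% of all genes called). From P5 to P8 in FAPs 0 of 33 were called (2.02% of all genes), and from P2 to P5 in SCs 0 of 27 (0.195%).

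In SC cultures against FAP cultures at P2, 3 of 36 were higher and 9 lower (18.2% of all genes called, 11.2% lower). CYP26B1, which degrades retinoic acid, was at 0.253 to 0.648 against 7.38 to 16.0 CPM (-4.77, SE 0.45, adjusted p = 0.0011), and RDH10, which oxidises retinol, at 0.844 to 1.18 against 6.45 to 6.97 CPM (-2.88, SE 0.19). MEIS2 (-5.37, SE 0.36), TGM2 (-5.21, SE 1.09) and RARRES2 (-5.19, SE 0.91) had the largest differences. ALDH8A1 (4.32, SE 0.62), RDH5 (1.84, SE 0.33) and HOXA5 (1.58, SE 0.36) were higher in SC cultures. RDH10 was also the 1 listed gene of 30 called in FAPs of SC against FAP cultures at P8 (1.75% of all genes called), and was lower there (-1.23, SE 0.24, adjusted p = 0.048). Between calves and adults 0 of 22 listed genes were called in muscle FAPs (1.32% of all genes) and 0 of 34 at P0 (0.0%).

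The genes whose profile over types and timepoints was most like each of the 7 were found by Pearson's r of the mean log2(CPM + 1) over 19 combinations of type and timepoint, among 11790 genes. The points share libraries and donors, so that r is a description. ALDH1A2 was most like SMOC2 (r = 0.967), OVOS2 and HHIP, and CRABP2 most like HTR2A (0.960), CPZ and ROR2. RBP4 was most like PIP4K2B (0.943), UGDH and C18H19orf48, DHRS3 most like PPP1R15A (0.944), with SHOC2 also near it, and ALDH1A1 most like FAM234A (0.884), STT3B and UAP1. RARB was most like HCRTR1 (0.898), PTGDR and TMEM178A. STRA6, with few UMIs, was most like OVOS2 (0.998), IGSF10 and KLK7.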

How the data were processed

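The authors aligned reads with Cell Ranger 6.0.1 to ARS-UCD1.2 and deposited raw UMI counts per gene and barcode, 1 matrix per timepoint (with the sequencing runs of a timepoint in 1 matrix). The authors' cell table gave each cell's library, donor (demuxlet genotype), cell type and the deposited percent of mitochondrial UMIs. Only cells in that table, singlets by genotype after the authors' quality control, were used, with no further search for doublets. The deposited combined expression table was not used. Culture and timepoint come from the records, and age class and sex from the study's donor table. The cells of the authors' table numbered 36129.

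UMIs were summed per donor and type (at least 10 cells) and tested with edgeR 4.0.16 (TMM, filterByExpr, robust quasi-likelihood F test) in R 4.3.3, with calls as in the text above. The SE is the absolute log2FC over the root of F. The authors tested cells, whereas donors are the replicates here. The scripts were tested on simulated data. Named genes are the 7, up to 3 called genes of the pathway list per direction with the largest change (values of SCARB1, RARG, CYP26B1 and RDH10 outside that rule were chosen after they were seen), and the 3 genes most like each, some of which are not reported here. Members and lists were chosen with earlier results of these data known. Donors are the same animals at each timepoint, but their deviations from the group means correlated weakly between muscle and P0. The r ran from -0.08 to 0.25 in FAPs, from -0.18 to 0.19 in SCs and from -0.03 to 0.20 in VECs. Of 9 donors, 5 in FAPs, 3 in SCs and 5 in VECs still correlated best with themselves. Later passages were not checked in this way. Alternatives were DESeq2 1.42.0, no filter, at least 30 cells, thinning of each sum to the smallest, donor as a block, sex as a covariate, and leaving out donors. Intervals and floors cover counting error only. No genome of the authors' build was at hand, so positions and sequences are not given here.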

Additional observations from a re-analysis of the deposited data

Results flagged for a closer look

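Of 43 groups of 4 to 10 donors with a mean level of at least 10 CPM, 6 held a donor far from the rest by Dixon's 95% criterion, which chance meets in about 1 group in 20. CRABP2 in muscle FAPs was 71.4 CPM in donor 10, with the next donor at 32.1 CPM. ALDH1A1 in P0 FAPs was 64.3 CPM in donor 5 (next 29.3 CPM). RBP4 in P0 SCs was 482 CPM in donor 2 (next 354 CPM). ALDH1A1 in P2 SCs was 44.1 CPM in donor 8, of a sorted FAP culture (next 14.2 CPM). RBP4 in P0 VECs was 134 CPM in donor 6 (next 93.5 CPM), and RARB in muscle SMMCs was 38.3 CPM in donor 6 (next 19.8 CPM).

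The change from muscle to P0 differed between FAPs and VECs, by an interaction term in edgeR's quasi-likelihood test, for DHRS3 (-2.92, adjusted p = 1.2e-06) and RBP4 (-1.53, adjusted p = 1.6e-04). With pseudobulks thinned to the smallest, the DHRS3 value was -1.60 and not called (adjusted p = 0.063). ALDH1A2 passed the same test between FAPs and SCs (-3.34, adjusted p = 0.012), but it entered through FAPs, with 3 UMIs in muscle SCs and 14 at P0, so that a difference between these types is not shown.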

How the results depend on the processing

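No called log2FC of the 7 genes reversed under any alternative that was run. The number of the 7 called from muscle to P0 changed as follows. With no filter on low counts it was 5 in FAPs (3 in the reported fit), 4 in SCs (1), 6 in VECs (2) and 3 in LECs (1). With thinning to the smallest pseudobulk it was 1 in SMMCs (2), 1 in Mono/Mac (2) and 0 in LECs (1), with fewer genes tested. With DESeq2 it was 2 in SCs (1). Leaving out 1 muscle donor of LECs gave 1 to 2. In SCs from P2 to P5 it was 1 with DESeq2 and 1 with donor as a replicate block (0). In FAPs of SC against FAP cultures at P8 it was 0 to 2 over the fits without 1 donor (1), and between calves and adults in muscle FAPs 0 to 1 (0). For the difference of changes, DESeq2 gave 2 for FAPs against SCs (1), and for FAPs against VECs (2) DESeq2 gave 4, at least 30 cells 4 and thinning 1. The replicate block changed the call of RBP4 in SCs from P2 to P5 (-1.20) and of CRABP2 in FAPs against VECs (-2.46, adjusted p = 0.029), and of no other of the 7.

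Over all genes, no filter raised the calls from muscle to P0 to 6925 in FAPs (3997), 5286 in SCs (1789), 5030 in VECs (2071), 4216 in SMMCs (1257), 3389 in Mono/Mac (1003) and 1863 in LECs (899), and thinning lowered them to 1589, 513, 1143, 515, 472 and 334. The number of genes tested moved with these counts. It was 17078, 15910, 15179, 14379, 13958 and 12602 with no filter and 3865, 1478, 3144, 1381, 1254 and 1014 with thinning. At least 30 cells gave 2177 in SMMCs. In SCs from P2 to P5 21 genes were called, 93 with DESeq2 and 246 with donor as a block. Thinning also lowered the calls to 524 in SCs from P0 to P2 (865; 1473 with no filter), 93 in FAPs from P5 to P8 (221), 5 in SCs from P2 to P5, 427 for FAPs against SCs (1754) and 1011 for FAPs against VECs (2208). In FAPs at P8 between cultures 173 were called, 414 with DESeq2 and 1 to 523 without 1 donor (1 without FAP donor 7, 523 without FAP donor 4). Between calves and adults 81 were called in muscle (152 with no filter) and 0 at P0 (8 with DESeq2, 1 without calf donor 10). A minimum of 30 cells could not be run for Mono/Mac and LECs, and no block for cultures or age classes, which are different animals.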
